A study of Rattus norvegicus with 10 samples.

Results

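EHBR, the Eisai hyperbilirubinemic rat, descends from Sprague-Dawley (SD) stock and lacks Mrp2, the canalicular efflux pump encoded by Abcc2. This account covers the genes around Abcc2 on chromosome 1. It takes genes with a start from 253554453 to 273554453 in the build rn6, which is 10 Mb to either side of the start of Abcc2, and a level of 1 TPM or more in 5 or more of the 10 samples. TPM scales transcript levels per length to the same total in every sample. Of 264 annotated genes in that window, 104 passed the filter. Abcc2, Scd, Scd2, Got1, Pgam1, Cyp26a1, Rbp4, Ppp1r3c and genes with symbols starting with Cyp2c or Slc25a were left out by name, 15 of the 104, so that 89 members remained of 11083 genes that passed the filter in the whole series.

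The samples were livers of 5-week-old males, 5 EHBR and 5 SD, each numbered 1 to 5. No treatment is given in the labels, and EHBR differs from SD by strain as a whole, so the loss of Mrp2 and other inherited differences cannot be told apart. Neither the colonies nor the housing of the animals is given, so the p-values speak only of sample-to-sample spread, which may be technical. The libraries held 13.8 to 19.6 M reads assigned to genes. In SD as in EHBR, numbers 4 and 5 formed a set of their own beside numbers 1 to 3, a division seen in the data and balanced between the strains. Values within both subsets are therefore given beside the called members and where they bear on another result. In bulk liver, fewer cells of a type and less RNA per cell cannot be told apart.

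As background, a mutation that founds a line is inherited together with the chromosome segment around it, and genes of that segment can carry sequence variants that change their own transcription. Neighbouring genes need not share a function, and some share a promoter region or overlap on opposite strands. The segment around Abcc2 is gene-dense in mammals and holds enzymes, organelle assembly factors, DNA repair factors and signalling genes.

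Abcc2 itself ranged from 60.0 to 271 TPM in SD and from 10.1 to 17.6 TPM in EHBR. Its neighbours did not follow it as a block. Of the 89 members, 4 were higher and 1 lower in EHBR in limma's test on log2(TPM + 1) at an adjusted p under 0.05. Pyroxd2, Hps1, the antisense gene AC096317.5 and Npm3 were higher, and Poll was lower. These 5 make 5.62% of the members, against 5.45% of all 11083 genes, and 5.53% of the 1302 genes that passed the filter elsewhere on chromosome 1. By direction, 4.49% of the members were higher and 1.12% lower, against a background of 3.82% and 1.63%. The share of members called is close to the background and is no result about the region. With each sample centred on its median, 3 members were higher and 3 lower, 3.37% each, against a background of 1.74% and 2.4%. Over all genes the calls went from 423 higher and 181 lower to 193 higher and 266 lower. That centring moved the median log2 difference of all genes from 0.15 to -0.02.

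Poll had no entry in the RefSeq promoter table. Pyroxd2 and Hps1 lie next to each other on the same strand and moved together, while Npm3 lies on the other side of Abcc2. For that reason the promoters of these 3 of the 5 called genes are shown. Each is the 250 bases before the RefSeq start in the build GRCr8, 5′ to 3′ on the minus strand of the gene, at chr1:251498009-251498258 for Pyroxd2, chr1:251525232-251525481 for Hps1 and chr1:254546650-254546899 for Npm3. These positions belong to another build than the rn6 positions in the text. Capitals mark matches to any of 5 motifs on either strand: the GC box with the letters GGGCGG, the box with the letters CCAAT, the TATA box with the letters TATAAA, the E-box with the letters CACGTG, and the core of the antioxidant response element with the letters TGACNNNGC. No matches in these windows overlap each other.
Pyroxd2: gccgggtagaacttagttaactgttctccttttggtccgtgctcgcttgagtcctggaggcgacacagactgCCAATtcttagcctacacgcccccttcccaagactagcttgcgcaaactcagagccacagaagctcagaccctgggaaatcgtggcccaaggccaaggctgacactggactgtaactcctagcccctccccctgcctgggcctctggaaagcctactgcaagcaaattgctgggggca
Hps1: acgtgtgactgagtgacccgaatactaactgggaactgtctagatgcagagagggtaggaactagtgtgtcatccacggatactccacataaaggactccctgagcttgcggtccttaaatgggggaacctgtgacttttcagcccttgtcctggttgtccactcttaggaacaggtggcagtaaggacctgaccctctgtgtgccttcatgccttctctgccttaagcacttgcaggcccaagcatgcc
Npm3: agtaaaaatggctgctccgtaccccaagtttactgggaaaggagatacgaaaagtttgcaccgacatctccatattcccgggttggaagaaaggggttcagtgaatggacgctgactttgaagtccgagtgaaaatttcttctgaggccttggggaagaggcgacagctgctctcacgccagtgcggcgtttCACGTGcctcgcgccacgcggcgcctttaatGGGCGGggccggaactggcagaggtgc

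The Pyroxd2 window held 1 CCAAT match, the Hps1 window held none of the 5 motifs, and the Npm3 window held 1 E-box and 1 GC box. Of the members, 73 had an entry in the RefSeq promoter table, with 75 promoters in all. GGGCGG was found in 68% of these and in 58.5% of the 8830 promoters of genes that passed the filter. CCAAT was found in 37.3% and 36.04%, TATAAA in 4% and 6.64%, CACGTG in 10.7% and 8.22%, and TGACNNNGC in 14.7% and 12.7%. These shares describe letters in a window. Over all 33469 promoters of the table the shares were 30.5%, 34.0%, 12.9%, 5.59% and 10.1% in the same order.

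Pyroxd2, a mitochondrial pyridine nucleotide-disulphide oxidoreductase-like protein, had the smallest adjusted p of the 89 members. It lies on chromosome 1 from 261961379 to 261986759 on the minus strand, 1.59 Mb before Abcc2. The SD samples numbered 1 to 5 had 13.5, 14.8, 19.1, 10.7 and 11.3 TPM, while EHBR samples had 33.0, 35.02, 31.8, 37.3 and 31.8 TPM. Every EHBR sample lay above every SD sample, with a gap wider than the range within either strain. The means were 13.9 ± 3.36 and 33.8 ± 2.37 TPM (± standard deviation, n = 5 per strain). On the log2 scale Pyroxd2 differed by 1.25 (SE 0.14, adjusted p = 0.000609, limma), 1.04 in samples 1 to 3 and 1.56 in samples 4 and 5. Reads of Pyroxd2 recovered from the upper-quartile FPKM values numbered 294 to 835 per sample.

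Hps1 encodes a subunit of the BLOC-3 complex, which acts in the assembly of melanosomes, platelet dense granules and other lysosome-related organelles. It spans 261989178 to 262015153 on the same strand, 2418 bases beyond the span of Pyroxd2. The SD samples had 2.80, 2.18, 5.42, 1.34 and 1.92 TPM, while EHBR samples had 9.63, 9.19, 9.26, 8.60 and 8.73 TPM. The EHBR samples lay close together and above all SD samples, among which number 3 was the highest. On the log2 scale it differed by 1.52 (SE 0.23, adjusted p = 0.00269, limma), 1.28 in samples 1 to 3 and 1.89 in samples 4 and 5. Hps1 had 82 to 236 reads in the SD samples and 341 to 450 in the EHBR samples, recovered in the same way.

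AC096317.5, annotated as antisense, lies from 261989467 to 261991896 on the plus strand, inside the span of Hps1. Its TPM values were 9.66, 5.35, 11.1, 3.36 and 6.57 in SD and 17.7, 17.9, 20.1, 12.6 and 16.02 in EHBR, and the strains did not overlap. The log2 difference was 1.20 (SE 0.25, adjusted p = 0.0166, limma), 1.06 in samples 1 to 3 and 1.40 in samples 4 and 5. The FPKM table gave another picture. There AC096317.5 ranged from 0 to 0.532 in SD and from 0 to 0.602 in EHBR, which corresponds to 0 to 5 reads per sample. Its log2 difference was 0.09 (adjusted p = 0.808, limma). At such levels the pseudocount of 1 holds that difference near 0, so it cannot show whether the strains differed. With upper-quartile FPKM the difference of AC096317.5 was 2.70 (SE 3.88, adjusted p = 0.746, limma). Relative to the other genes, its TPM exceeded its FPKM by 6.07 on the log2 scale. The library kit marks strand, per the labels, but the sources used here do not give the strand setting of the counting. For AC096317.5, SD samples 2 and 4 and EHBR sample 4 had 0 recovered reads but 5.35, 3.36 and 12.6 TPM. Its TPM values therefore do not come from the counting behind those reads. For the other members the sources do not say whether both tables come from the same counting. Their recovered reads need not be those behind the TPM values. Whether reads of Hps1 enter the TPM of AC096317.5 is not known. In 3 other members, AABR07006866.1, Exosc1 and Taf5, the tables lay apart by over 0.3 on the log2 scale, at -0.38, -0.31 and 0.31. Leaving out EHBR sample 3 also ended its call in the TPM table (adjusted p = 0.0511, limma). Without AC096317.5, 3 members were higher.

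Poll encodes DNA polymerase lambda, which fills gaps in base excision repair and end joining. It lies from 265290339 to 265298797 on the minus strand, 1.74 Mb after Abcc2. The SD samples had 11.9, 11.2, 12.3, 13.8 and 12.6 TPM, while EHBR samples had 7.97, 7.93, 8.11, 10.05 and 7.28 TPM. All EHBR samples were below all SD samples, with EHBR number 4 nearest to them. The log2 difference was -0.53 (SE 0.11, adjusted p = 0.0168, limma), -0.51 in samples 1 to 3 and -0.57 in samples 4 and 5. Without EHBR sample 2 the call was lost (adjusted p = 0.0541). Dpcd, a gene with a role in cilia, lies on the plus strand 70 bases from the 5′ end of Poll, so that both are transcribed away from the space between them. It averaged 14.3 ± 1.38 TPM in SD against 12.1 ± 3.22 TPM in EHBR (± standard deviation, n = 5 per strain), with a log2 difference of -0.25 (adjusted p = 0.408, limma) and overlap between the strains.

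Npm3, a nucleoplasmin family protein of the nucleolus, lies from 265504575 to 265506046 on the minus strand, 1.95 Mb after Abcc2. The SD samples had 19.3, 16.2, 16.4, 17.9 and 18.5 TPM, while EHBR samples had 25.9, 26.1, 20.9, 40.5 and 25.8 TPM. The strains did not overlap, but EHBR number 4 stood far above the other EHBR samples and number 3 came close to the SD range. The log2 difference was 0.60 (SE 0.15, adjusted p = 0.0452, limma), 0.46 in samples 1 to 3 and 0.80 in samples 4 and 5. This call was lost in 16 of 25 alternatives, with median centring among them (log2 0.43, adjusted p = 0.266, limma). Leaving out any 1 SD sample, or EHBR sample 1, 2 or 5, also ended it, with adjusted p-values from 0.0667 to 0.0962. Oga, the enzyme that removes O-GlcNAc from proteins and lies 1404 bases from Npm3 on the same strand, averaged 6.69 ± 1.82 TPM in SD against 7.72 ± 1.12 TPM in EHBR (adjusted p = 0.524, limma).

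**Figure D1:**
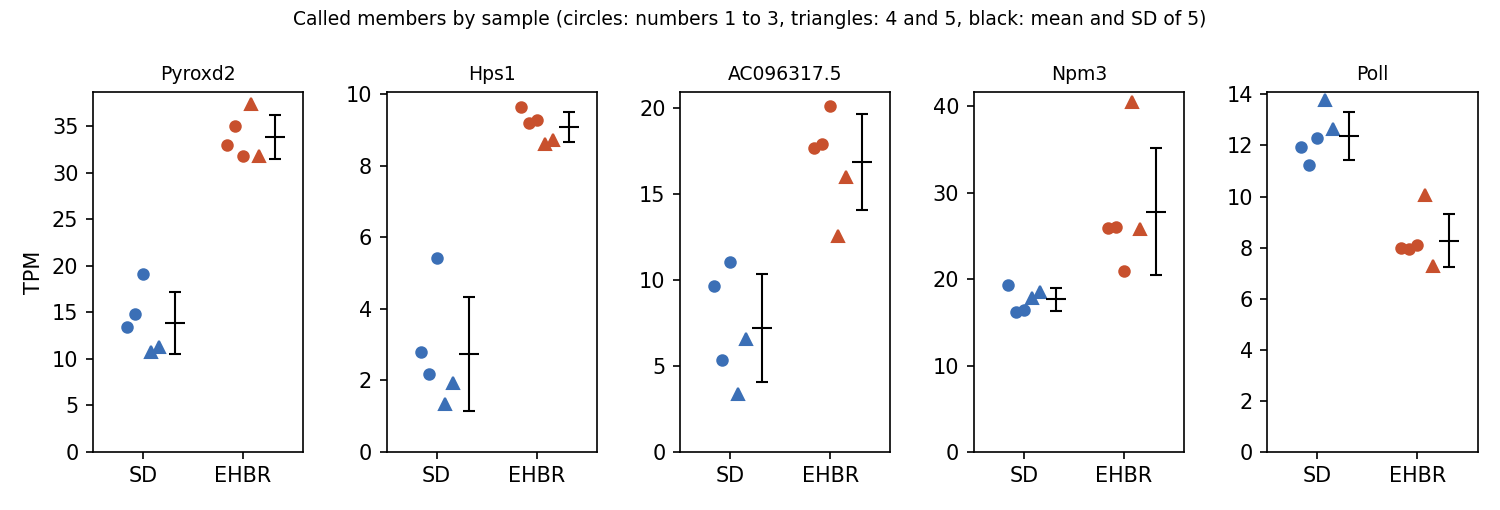
Level in TPM of the 5 called members in each sample, with SD in blue and EHBR in red, circles for the samples numbered 1 to 3, triangles for 4 and 5, and black bars for the mean and standard deviation of 5 samples; each axis starts at 0. Pyroxd2 and Hps1 show EHBR points well above SD, for Npm3 EHBR sample 4 stands at 40.5 TPM, and for Poll the EHBR points lie below SD.

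The summed levels of 3 sets of cell type markers did not overlap between the strains. These sums were not centred, and the median log2 difference of all genes was 0.15. Over all genes, 3.82% were called higher and 1.63% lower. The summed TPM of 8 kept markers of sinusoidal endothelium was 69.1 to 90.1 in SD and 98.8 to 131 in EHBR, with 3 of the 8 called higher. The sum of 6 bile duct markers, 2 of them kept, was 15.3 to 17.5 in SD and 12.3 to 13.9 in EHBR, with 0 called. Markers of Kupffer cells (444 to 567 in SD, 445 to 796 in EHBR), stellate cells (85.2 to 175 and 136 to 176), dividing cells (2.42 to 23.4 and 14.1 to 30.7), lymphocytes (4.12 to 9.01 and 4.59 to 5.97) and erythroid cells (981 to 2047 and 1325 to 3309) overlapped between strains, with 1 of the 5 kept erythroid markers called higher. Pancreas markers summed to 40.8 to 66.7 in SD and 24.1 to 35.03 in EHBR, with 1 of 2 kept markers called in each direction and the defining markers Prss1 and Pnlip listed at 0 in every sample. Hepatocyte markers summed to 125620 to 154383 in SD and 140767 to 161347 in EHBR, so the defining markers of the labelled tissue were abundant. The part of these markers in the differences of the 5 called members was not tested.

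Along the chromosome, all 5 called members lay within 2.5 Mb of Abcc2. That stretch holds 46 members, so 10.9% of them were called, beside 5.45% of all genes, and 12 of them, or 26.1%, had an unadjusted p under 0.05, beside 20.9% of all genes. Between 2.5 and 5 Mb lie 28 members, of which none was called by limma and 1 had an unadjusted p under 0.05. The 8 members from 5 to 7.5 Mb and the 7 from 7.5 to 10 Mb also had none called, with 2 and 1 at an unadjusted p under 0.05. With a term for the sample division, 13 of the 46, or 28.3%, 1 of the 28, 1 of the 8 and 0 of the 7 were called, beside 16.9% of all genes. Of the 5 calls near Abcc2, 3 are at the single place of Pyroxd2, Hps1 and AC096317.5, and the difference between the distance classes was not tested.

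The median log2 difference was 0.16 in the nearest class, 0.04 from 2.5 to 5 Mb, -0.00199 from 5 to 7.5 Mb and 0.25 from 7.5 to 10 Mb, beside 0.15 over all genes. Members before Abcc2, 39 in number, had a median of 0.24, and the 50 after it 0.07. The most distant member before Abcc2 was Rpp30, a ribonuclease P subunit gene, at 8.86 Mb, and the last after it was Gsto1 at 4.05 Mb. Past Gsto1 the window holds 21 annotated genes, among them Sorcs1, Sorcs3 and Ins1, and none passed the filter.

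**Figure D2:**
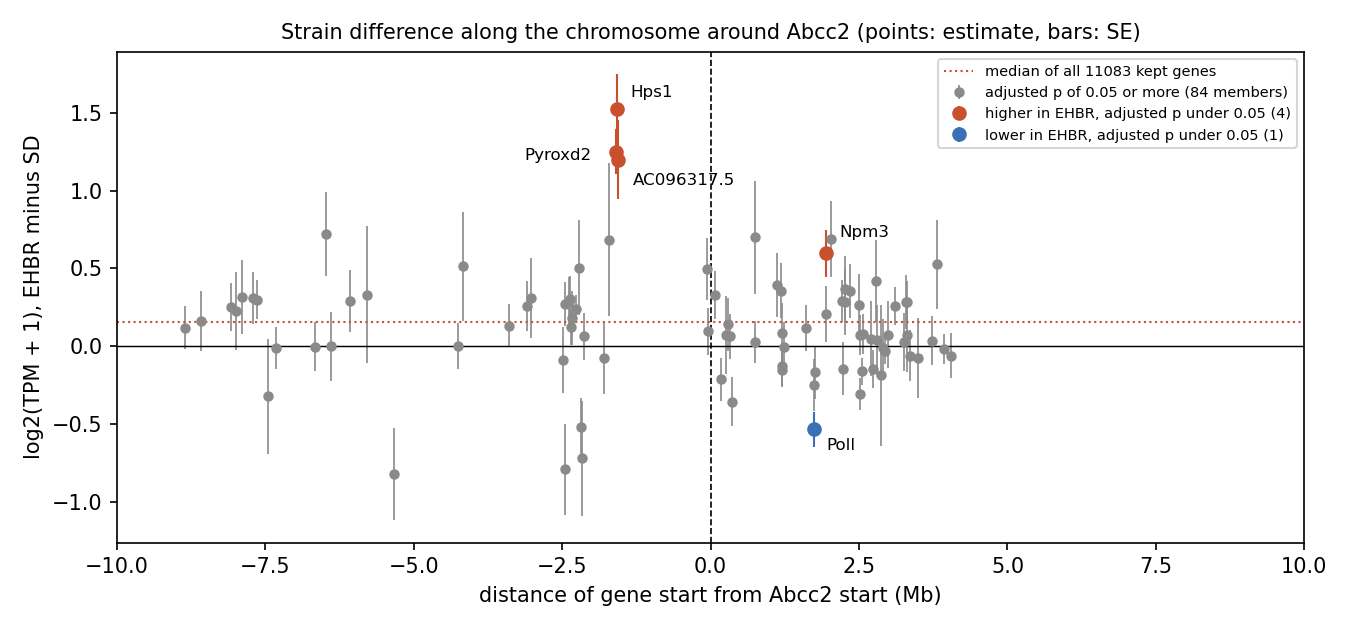
Log2 difference of each of the 89 members, EHBR minus SD on log2(TPM + 1), against the distance of its start from that of Abcc2 in Mb; bars are standard errors, red and blue points passed the test, and the dotted line marks the median of all 11083 genes at 0.15. The 4 higher and 1 lower members lie within 2.5 Mb of Abcc2, and grey points fall on both sides of 0.

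Cutc, Cox15, Dnmbp, Cpn1 and Erlin1, the members closest to Abcc2, did not pass the test. The next member before Cox15 is AC096317.5, at 1.56 Mb from Abcc2, which was called as given above. Cutc, a copper-binding protein gene, starts 0.04 Mb before Abcc2 and averaged 18.2 ± 4.22 TPM in SD against 19.2 ± 1.89 TPM in EHBR (± standard deviation, n = 5 per strain). On the log2 scale it differed by 0.10, with a 95% interval from -0.23 to 0.43, and turned to -0.07 with median centring. Cox15, an enzyme of heme A synthesis for cytochrome oxidase, had 1.99, 2.87, 2.77, 0.994 and 1.34 TPM in SD and 3.06, 3.98, 3.20, 2.82 and 2.53 TPM in EHBR. EHBR samples lay at the top of the range, yet SD samples 2 and 3 overlapped them, and the log2 difference of 0.50 (SE 0.20) had an adjusted p = 0.181 with limma. With the term for the sample division it had an adjusted p = 0.0327, a setting in which 16.9% of all genes were called. On the other side, Dnmbp, a guanine exchange factor of cell junctions, had a log2 difference of 0.33 (95% interval -0.01 to 0.66). Cpn1, the catalytic subunit of plasma carboxypeptidase N made by liver, ran from 100.01 to 139 TPM in SD and from 86.5 to 120 TPM in EHBR. Its log2 difference was -0.21 (adjusted p = 0.398, limma), and it passed in 5 of 25 alternatives. Among these were median centring at -0.38 (adjusted p = 0.0395, limma) and the term for the sample division (adjusted p = 0.0238, limma). Erlin1, an endoplasmic reticulum protein, was at 0.07 with an interval from -0.48 to 0.62.

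By role, the members fell into 8 lists of genes, with 17 members in none. Each list is shown by the member with the smallest adjusted p, called or not, and the most abundant one, and further members were added after their values were seen. Of 9 mitochondrial members, Pyroxd2 rose, none fell and 8 did not pass, with a median log2 difference of 0.24, or 0.07 after median centring. Ndufb8, a complex I subunit, was the most abundant of these at 308 ± 57.9 TPM in SD and 311 ± 39.2 TPM in EHBR, a log2 difference of 0.02 (95% interval -0.27 to 0.32) that turned to -0.15 with median centring. Hoga1, the last enzyme of mitochondrial hydroxyproline breakdown, ran from 181 to 209.7 TPM in SD and from 208 to 252 TPM in EHBR. These ranges overlapped at their ends, and Hoga1 had a log2 difference of 0.24 (adjusted p = 0.152, limma), which passed with the term for the sample division (adjusted p = 0.0106). Of 14 members of membrane traffic and lysosome-related organelles, Hps1 rose and 13 did not pass. Hps6, a subunit of the BLOC-2 complex, averaged 2.58 ± 0.563 TPM in SD against 3.34 ± 0.216 TPM in EHBR (adjusted p = 0.239, limma). Bloc1s2, a subunit of BLOC-1, pointed the other way with a log2 difference of -0.36 (adjusted p = 0.228, limma), and Wbp1l, the most abundant of the list, was at 0.04 or, with median centring, -0.13.

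Of 8 nucleolar and RNA-handling members, Npm3 rose and 7 did not pass. Nolc1, a nucleolar phosphoprotein, had a log2 difference of 0.37, Pdcd11, a ribosome assembly factor, 0.29, and Rrp12, another such factor, 0.27. Their adjusted p-values were 0.34, 0.253 and 0.295 with limma. With the term for the sample division 2 of the list were called, Npm3 and Nolc1, the latter with an adjusted p = 0.0287. Over all genes 16.9% were called with that term. The list's median was 0.28, against 0.12 after centring. Of 6 members of DNA repair, replication and mitosis, Poll fell and 5 did not pass. Sfr1, a recombination factor, stayed within 33.9 to 42.1 TPM in SD and 33.4 to 41.6 TPM in EHBR, with a 95% interval of the log2 difference from -0.23 to 0.20. Hells, a chromatin remodeller of dividing cells, ran from 0.194 to 4.24 TPM in SD and from 0.648 to 5.76 TPM in EHBR.

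None of the other 4 lists held a called member in limma's test. With the term for the sample division, 1 member of NF-kB and receptor signalling and 1 of cytoskeleton, adhesion and matrix were called, and 0 of the other 2 lists. These counts stand beside 16.9% of all genes called with that term. Counts at an unadjusted p under 0.05, here and in the next paragraph, stand beside 20.9% of all genes. Of 10 metabolic enzymes 1 had an unadjusted p under 0.05, Ide, the insulin-degrading enzyme, with 18.9 ± 3.33 TPM in SD and 23.3 ± 1.70 TPM in EHBR (log2 0.30, adjusted p = 0.201, limma). Gsto1, an omega-class glutathione transferase and the most abundant of them, averaged 156 ± 38.8 TPM in SD against 146 ± 7.67 TPM in EHBR. As3mt, the arsenic methyltransferase, had 130.4 ± 6.52 and 128 ± 10.8 TPM, a log2 difference of -0.03 with an interval from -0.22 to 0.15. Of 6 members of NF-kB and receptor signalling 2 had an unadjusted p under 0.05. Avpi1 ran from 17.1 to 39.1 TPM in SD and from 15.9 to 21.9 TPM in EHBR (log2 -0.52, adjusted p = 0.145, limma), and passed with median centring (adjusted p = 0.0322). Avpi1 differed by -0.78 in samples 1 to 3 and -0.13 in samples 4 and 5. Cuedc2, a regulator of NF-kB signalling, had 9.56, 9.09, 9.94, 10.6 and 10.8 TPM in SD and 7.38, 7.82, 8.55, 8.27 and 7.42 TPM in EHBR. All its EHBR samples lay below all SD samples, and the log2 difference of -0.31 had an adjusted p = 0.115 with limma. With the term for the sample division Cuedc2 passed (adjusted p = 0.0328).

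Of 11 members of hedgehog, Wnt and FGF signalling and transcription, 1 had an unadjusted p under 0.05. This was Frat2, a GSK3-binding protein, at 5.92 ± 2.96 TPM in SD and 2.92 ± 1.43 TPM in EHBR (log2 -0.79, adjusted p = 0.153, limma), with 13 to 77 reads per sample. Frat2 differed by -0.56 in samples 1 to 3 and -1.14 in samples 4 and 5. Hhex, a homeobox factor of liver development, had 35.02, 57.8, 199.9, 67.8 and 89.7 TPM in SD and 42.9, 53.9, 74.4, 72.5 and 64.1 TPM in EHBR. SD number 3 was far above the other SD samples, and without it the log2 difference turned from -0.32 to 0.03. The list's median was -0.13, and -0.30 after centring. Of 8 cytoskeletal, adhesion and matrix members 0 had an unadjusted p under 0.05. Sema4g, a semaphorin, ran from 39.8 to 70.2 TPM in SD and from 59.7 to 79.2 TPM in EHBR (log2 0.36, adjusted p = 0.28, limma). It passed with the term for the sample division (adjusted p = 0.0167), at 0.20 in samples 1 to 3 and 0.60 in samples 4 and 5.

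**Figure D3:**
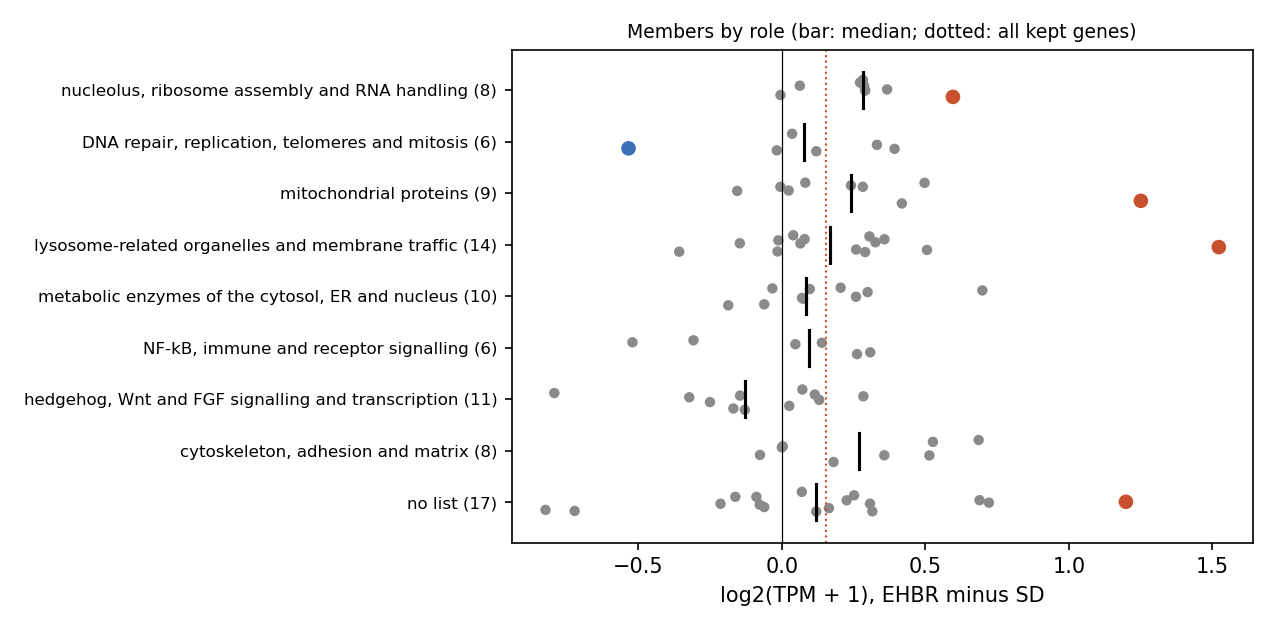
Log2 difference of each member, EHBR minus SD on log2(TPM + 1), in 8 role lists and in the 17 members of no list, with the number of members after each name; large red and blue points passed the test, black bars are medians and the dotted line is the median of all 11083 genes. Each list with a called member has 1, and the medians of the lists run from -0.13 to 0.28.

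In 8 of the 89 members, or 8.99%, the strains did not overlap, against 8.47% of all genes. EHBR was above SD in 5 and below it in 3, where the background was 6.45% and 2.02%. Besides the called members and Cuedc2, these were Armh3 and Mfsd13a, named because the values singled them out. Armh3, a Golgi protein, had 2.996, 2.97, 2.998, 1.31 and 0.729 TPM in SD and 4.62, 4.71, 3.36, 3.41 and 3.47 TPM in EHBR. Its EHBR samples lay above the SD samples, but SD numbers 4 and 5 were far lower than SD numbers 1 to 3, and the log2 difference of 0.69 had an adjusted p = 0.139 with limma. With the term for the sample division Armh3 passed (adjusted p = 0.0198), and it differed by 0.38 in samples 1 to 3 and 1.15 in samples 4 and 5. Mfsd13a, a membrane protein, had SD levels of 14.7 to 15.3 TPM and EHBR levels of 12.6 to 14.6 TPM, a log2 difference of -0.16 (adjusted p = 0.322, limma).

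The members as a whole lay close to the distribution of all genes. Their median log2 difference was 0.12 against 0.15, and 61 of 89 were above 0, or 68.5%, against 73.1% of all genes. With each sample centred on its median, the medians were -0.05 and -0.02, and 43.8% and 47.4% were above 0. A log2 difference of at least 0.5 in either direction was seen in 16 members, or 18.0%, against 12.7% of all genes. With a term for the sample division, 12 members were higher and 3 lower, 16.9% of the members and, to the same rounding, 16.9% of all genes.

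**Figure D4:**
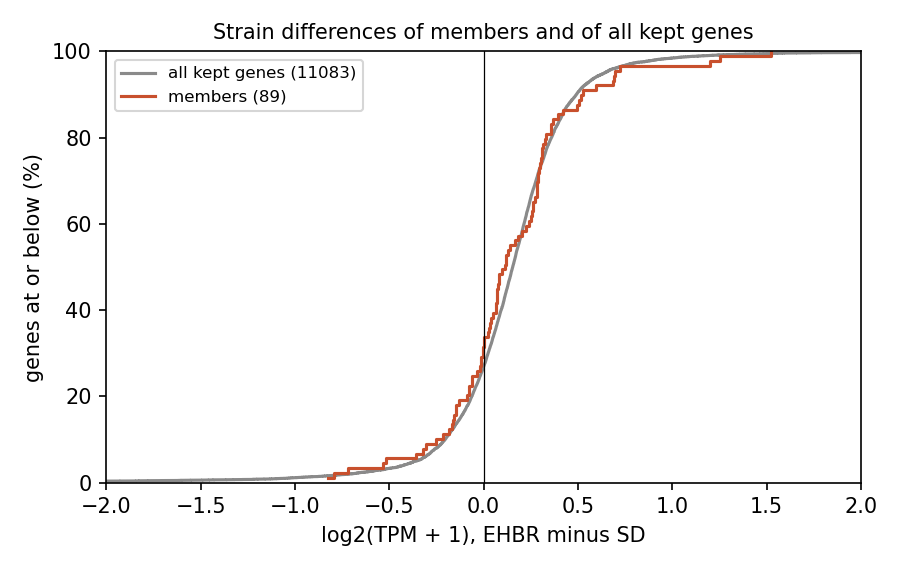
Share of genes, in percent, at or below each log2 difference, EHBR minus SD on log2(TPM + 1), for the 89 members in red and all 11083 genes in grey; the horizontal axis is shown from -2 to 2. The curves run close together, with medians of 0.12 and 0.15.

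The division of the samples reached many members. In SD, numbers 4 and 5 were both below numbers 1 to 3 in 55 of the 89 members and both above in 9. The background was 5698 and 1244 of 11083 genes, or 51.4% and 11.2%. In EHBR this held for 42 and 4 of the 89 members, against 3722 and 1326 of 11083 genes, or 33.6% and 12.0%. In 58 members the strain difference had the same sign in both subsets, and in 31 the opposite sign. The share over all genes was not taken, so these counts show nothing particular to the members. All 5 called members kept their sign, which their choice over all samples partly fixes. A limma test of the difference between the subsets called 2 members, Loxl4 and Cyp17a1, and 0.271% of all genes. Both are named for this result.

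Cyp17a1, the steroid 17-alpha-hydroxylase, had 20.2, 16.9, 23.4, 26.3 and 24.0 TPM in SD and 31.3, 30.1, 43.5, 5.49 and 10.4 TPM in EHBR. EHBR numbers 1 to 3 were above every SD sample and EHBR numbers 4 and 5 below every one. Cyp17a1 differed by 0.76 in samples 1 to 3 and -1.60 in samples 4 and 5, with an interaction of -2.35 (SE 0.35, adjusted p = 0.0388, limma). Loxl4, a matrix-crosslinking amine oxidase, had 8.34, 6.68, 6.32, 0.734 and 1.15 TPM in SD and 4.06, 6.84, 3.73, 11.9 and 7.71 TPM in EHBR. Here SD numbers 4 and 5 were the low samples, with 29 and 46 recovered reads, and EHBR number 4 the highest. Loxl4 differed by -0.50 in samples 1 to 3 and 2.46 in samples 4 and 5, with an interaction of 2.95 (SE 0.36, adjusted p = 0.0115, limma). The second subset holds 2 samples per strain, and the division was found in these data, so both interactions describe these samples.

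**Figure D5:**
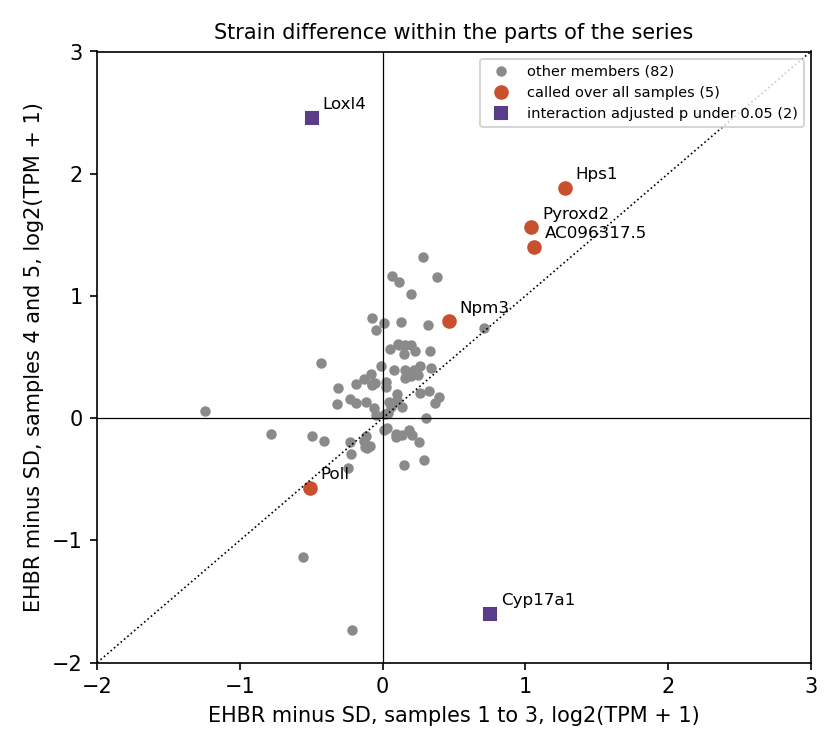
Strain difference of each member, EHBR minus SD on log2(TPM + 1), among samples 4 and 5 against that among samples 1 to 3; red points were called over all samples, purple squares had an interaction with an adjusted p under 0.05, and the dotted line marks equal values. Hps1, Pyroxd2, AC096317.5 and Npm3 lie in the upper right and Poll in the lower left, while Cyp17a1 and Loxl4 lie where the signs differ.

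Of the 89 members, 87 are annotated as protein-coding, 75 had at least 1 TPM in all 10 samples, and 71 had at least 50 reads in every sample. No member passed the filter through 1 strain alone: each had at least 1 sample of both strains at 1 TPM, although 12 fell short of it in some SD sample and 7 in some EHBR sample. Just inside the filter lay Hells, R3hcc1l, Sh3pxd2a and Zfp518a, each with 7 samples at 1 TPM and medians of 1.18 to 1.51 TPM. Just outside lay Sufu and AC121740.1, with 3 such samples and medians of 0.744 and 0.276 TPM. In 14 members another annotated gene overlaps on the opposite strand, and for Hps1 with AC096317.5 and Mrpl43 with Twnk both genes passed the filter, so their values are uncertain. Mrpl43, a mitochondrial ribosomal protein gene, had a log2 difference of -0.16 and Twnk, the mitochondrial DNA helicase gene, 0.08, and neither passed. Outside the rule for names, LOC100361492 is Cyp2c55 by its RefSeq gene number and stayed a member because the files list it under a placeholder (log2 -0.82, adjusted p = 0.142, limma, with -0.22 in samples 1 to 3 and -1.73 in samples 4 and 5). LOC103693430 is the pseudogene Atp5mk-ps2 by the same route and may share reads with its parent gene, so its 585 ± 211 TPM in SD and 597 ± 146 TPM in EHBR (± standard deviation, n = 5 per strain) are uncertain.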

How the data were processed

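Poly(A) RNA of the 10 livers was sequenced with a strand-marking kit (labels' protocols). Among the tools in the submitters' processing notes are featureCounts 1.6.3, HISAT2 2.1.0, Trimmomatic 0.38 and FastQC 0.11.7, with rn6 as the build. Their roles, order, settings and strand option are not given in the sources used here. The authors deposited TPM, FPKM and upper-quartile FPKM per gene. Whole reads were inferred from the upper-quartile FPKM values, starting from the low ones, and FPKM was used for depth. They give depth, gene length and reads per gene and were not used to test. The TPM values of AC096317.5 do not come from the same counting, and for the other genes this is not known. The strains were compared with R 4.3.3 and limma 3.58.1 from log2(TPM + 1) over the 11083 genes that reached 1 TPM in 5 or more samples. P-values were adjusted by Benjamini and Hochberg over all of them, with a threshold of 0.05. The pseudocount understates changes of low genes. The fit was tested on simulated data that did not hold the sample division. The members, the role and marker lists and the tests were chosen with earlier results of these data known. Genes named were Pyroxd2, Hps1, Poll, Npm3, every called member, the 3 members nearest to Abcc2 on each side, and in each role list the one with the smallest adjusted p and the most abundant. All others were chosen after their values were seen. Alternatives were FPKM, upper-quartile FPKM, 2 other pseudocounts, other filters, normalizations and variance fits, terms or subsets for the sample division, a replicate block, and leaving out each sample. Promoters came from RefSeq in GRCr8, and a reference genome was not used here. The replicate numbers pair no samples by the labels.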

Additional observations from a re-analysis of the deposited data

Results flagged for a closer look

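In 6 of 178 groups of 5 samples (89 members in both strains), 1 sample stood far from the other 4, by the ratio of its gap to the range of the group, against a critical value of 0.71. Chance alone passes that value in about 1 in 20 groups. For Npm3, EHBR sample 4 had 40.5 TPM and the others 20.9 to 26.1 TPM, a ratio of 0.736. For Frat2, EHBR sample 1 had 5.37 TPM and the others 1.62 to 2.67 TPM, a ratio of 0.72. For Hells, EHBR sample 2 had 5.76 TPM and the others 0.648 to 1.58 TPM (0.817). For Bloc1s2, EHBR sample 4 had 17.6 TPM and the others 9.85 to 12.0 TPM (0.728). For Twnk, EHBR sample 4 had 7.14 TPM and the others 11.1 to 11.5 TPM (0.912). For Mfsd13a, SD sample 3 had 14.7 TPM and the others 15.2 to 15.3 TPM (0.749).

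In 2 members the strain difference was not the same among samples 4 and 5 as among samples 1 to 3, by an interaction term in limma. The change in the log2 difference was 2.95 for Loxl4 (adjusted p = 0.0115, limma) and -2.35 for Cyp17a1 (adjusted p = 0.0388, limma). The subsets were seen in the data and are not groups of the study.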

How the results depend on the processing

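Pyroxd2 and Hps1 were called in all 25 alternatives, with log2 differences of 1.04 to 1.56 and 0.89 to 1.89. Poll was called in 23, AC096317.5 in 21 and Npm3 in 9. The counts that follow are given with the share of the members against that of all genes. From 4 higher members, the count moved to 2 with FPKM (2.25% against 2.77%) and 2 with upper-quartile FPKM (2.25% against 1.71%). It was 12 with the term for the sample division (13.5% against 13.6%) and 7 among samples 4 and 5 (7.87% against 4.15%). With 1 sample left out it ran from 3 to 4. From 1 lower member, the count moved to 2 with upper-quartile FPKM (2.25% against 2.17%) and 2 with quantile normalization (2.25% against 2.62%). It was 3 with median centring (3.37% against 2.4%) and 3 with the term (3.37% against 3.36%). Samples 1 to 3 alone gave 2 (2.25% against 2.17%) and samples 4 and 5 alone gave 3 (3.37% against 1.01%). With 1 sample left out it ran from 0 (without EHBR sample 2) to 2 (without SD sample 4). Chosen after seeing the data, removal of a gene length trend gave 3 lower members (3.37% against 2.63%) and 4 higher (4.49% against 2.24%). Centring together with the term gave 8 lower (8.99% against 6.34%) and 5 higher (5.62% against 4.4%). The cause was not tested. The replicate numbers did not pair the samples (same-number correlations 0.07 to 0.29, and 1 of 5 EHBR and 3 of 5 SD samples correlated best with their own number). The replicate block gave 4 higher and 1 lower member, and 639 higher and 222 lower genes against 423 and 181. No called member changed sign. Uncalled log2 differences near 0 did, and so did that of Hhex, which was -0.32 over all 10 samples. With FPKM, upper-quartile FPKM and centring (with or without the term), Cutc went to -0.00071, -0.069 and -0.072, Erlin1 to -0.029, -0.099 and -0.099, Ndufb8 to -0.064, -0.13 and -0.15, and Wbp1l to -0.056, -0.13 and -0.13. Quantile normalization gave -0.051 for Cutc, -0.038 for Erlin1 and -0.037 for Wbp1l, and removal of the length trend -0.12 for Erlin1 and -0.17 for Wbp1l. Among samples 1 to 3, Cutc was at -0.080 and Gsto1 at 0.15. Among samples 4 and 5, Ndufb8 was at -0.14 and Sfr1 at 0.025. With 1 sample left out, Hhex ran from -0.59 to 0.025, Cutc from -0.00024 to 0.20, Erlin1 from -0.045 to 0.23, Ndufb8 from -0.046 to 0.10, Wbp1l from -0.13 to 0.15, Sfr1 from -0.059 to 0.026 and Gsto1 from -0.15 to 0.055. Low read numbers limit the FPKM values of AC096317.5, and they limit Frat2 (13 to 77 reads per sample). They also limit other members, among them Hells (6 to 125), LOC100361492 (7 to 134), Loxl4 (29 to 401) and Armh3 (33 to 143).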
